A study of Mus musculus with 4 samples.

Results

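The cells described here are the enterocytes at the bottom end of a villus position score in the irradiated small intestine of 6 mice. They number 1866 of 9591 cells that passed the filters, 1158 from the WT library and 708 from the KO library. Of the members, WT1, WT2 and WT3 gave 84, 208 and 213, and KO1, KO2 and KO3 gave 147, 156 and 195, while 686 carried no hashtag and 177 carried hashtags of more than 1 mouse. A hashtag is an antibody-borne DNA barcode that marks the mouse of a cell, and only cells of 1 mouse entered the comparisons. Enterocytes were cells with at least 2% of their UMIs (unique molecular identifiers, 1 per captured transcript) from Apoa1, Apoa4, Fabp1, Fabp2 and Rbp2, less than 2% from 5 goblet genes and less than 3 Fabp6 UMIs per 10000. The 988 cells highest in Duox2 and Duoxa2 (the top 15%) were dropped. The remaining 5600 were ranked by the mean log level of Ada, Nt5e, Slc28a2, Egfr and Klf4 minus that of Reg1, Reg3b, Reg3g, Plac8 and Lypd8, and the lowest tertile was kept, called bottom-tertile enterocytes below. The members were thus chosen by their measured levels of these genes.

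The study gave 11 Gy of gamma irradiation to wild-type (WT) mice and to VilCreIfnlr1fl/fl mice (KO), in which Cre recombinase under the Villin promoter deletes the floxed interferon-λ receptor gene Ifnlr1 in intestinal epithelial cells. Head, thorax and upper limbs were shielded in all mice, ages are not given, and no unirradiated mice are among the samples. Tissue was taken 96 h after irradiation per the series design and 3 days after it per the protocol, a difference that was not reconciled. Live EPCAM-positive, CD45-negative cells were sorted from a preparation that the protocol describes as crypt cells, so a villus position here rests on transcripts alone. The cells of 3 mice per genotype were pooled before capture, and the genotype cannot be told apart from the pool. The labels do not say whether the mice were littermates, and p-values below measure the spread between mice within 2 pools, save those with the block explained below.

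Enterocytes are born in the crypts and move up the villus until they are shed at its tip, and their transcripts change on the way. Cells near the base are known for antimicrobial lectins of the Reg3 family, cells higher up for nutrient uptake, and cells at the tip for purine breakdown and cell adhesion genes. Interferon-λ signals through a receptor made of Ifnlr1 and Il10rb, which in the gut is mainly an epithelial receptor. Its kinases activate transcription factors that join Irf9 and bind a promoter element with a pair of TTTC blocks, the interferon-stimulated response element, to switch on antiviral genes.

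The promoters of 4 interferon-stimulated genes on which the results below turn are shown first, because they carry that element. Each is the 250 bases before the RefSeq start on GRCm38.p6, 5′ to 3′ on the gene's strand, with matches to TTTCNNTTTC on either strand in capitals. Overlapping matches run together.
Isg15 (chr4:156200819-156201068, minus strand): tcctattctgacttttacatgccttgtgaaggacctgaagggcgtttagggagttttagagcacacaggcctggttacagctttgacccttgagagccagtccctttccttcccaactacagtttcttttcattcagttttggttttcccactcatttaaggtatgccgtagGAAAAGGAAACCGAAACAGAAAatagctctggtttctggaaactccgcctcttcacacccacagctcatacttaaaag
Ifit1 (chr19:34640639-34640888, plus strand): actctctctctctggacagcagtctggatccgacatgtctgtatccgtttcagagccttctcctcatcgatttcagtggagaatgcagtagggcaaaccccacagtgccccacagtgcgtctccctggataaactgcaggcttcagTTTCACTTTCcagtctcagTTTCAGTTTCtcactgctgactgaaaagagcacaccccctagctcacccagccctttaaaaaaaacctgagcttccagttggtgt
Oas1a (chr5:120907526-120907775, minus strand): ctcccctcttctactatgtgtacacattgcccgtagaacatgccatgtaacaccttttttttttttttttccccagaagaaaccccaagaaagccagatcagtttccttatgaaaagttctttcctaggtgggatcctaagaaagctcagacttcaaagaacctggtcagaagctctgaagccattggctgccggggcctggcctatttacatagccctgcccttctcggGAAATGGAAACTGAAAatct
Rsad2 (chr12:26456453-26456702, minus strand): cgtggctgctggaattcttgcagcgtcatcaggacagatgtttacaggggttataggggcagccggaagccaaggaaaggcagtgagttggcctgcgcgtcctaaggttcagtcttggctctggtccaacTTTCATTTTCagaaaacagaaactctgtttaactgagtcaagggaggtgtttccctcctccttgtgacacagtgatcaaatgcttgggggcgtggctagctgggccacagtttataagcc
Isg15 had 3 matches, Ifit1 and Oas1a had 2 each, and Rsad2 had 1. The motif occurred in the same window of 14 of the 37 interferon-stimulated genes with an entry (37.8%) and of 936 of all 27025 genes with one (3.46%). These 4 were picked for their matches and for the values given below.

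All values are UMI counts summed over the bottom-tertile cells of a mouse and scaled to counts per 1000000 UMIs (CPM), listed as WT1, WT2, WT3 and then KO1, KO2, KO3. The sums held 1321384, 5102234 and 2903089 UMIs in WT and 3096593, 7056642 and 4246576 in KO mice. The libraries share 28 cell barcodes, 9 of them past the filters, and 3 members carry one. WT2 and KO2, which carry hashtag number 2, differed from the other mice of their genotype in depth. Their members had the highest median UMIs per genotype, with 10216.5, 15904 and 10522 in WT and 20419, 41434.5 and 17857 in KO mice. The lowest mitochondrial shares were theirs as well, with medians of 13.5%, 11.8% and 16.7% against 11.6%, 8.14% and 12.1%. Some results are therefore also given without WT2 and KO2. A call with the block that lacks such a value may still rest on them.

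Bottom-tertile cells made up 15.7% of the ranked enterocytes of WT1 (exact 95% interval 12.7 to 19.1), 49.4% of WT2 (44.5 to 54.3) and 28.5% of WT3 (25.3 to 31.9). In KO mice the shares were 20.7% (17.8 to 23.9), 36.2% (31.7 to 40.9) and 36.4% (32.3 to 40.6). These intervals cover counting error only, and the genotypes overlapped. The score itself spread furthest in the mice with hashtag 2, with median scores of the members of 0.055, −1.17 and −0.23 in WT and −0.34, −2.81 and −0.74 in KO mice.

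**Figure D1:**
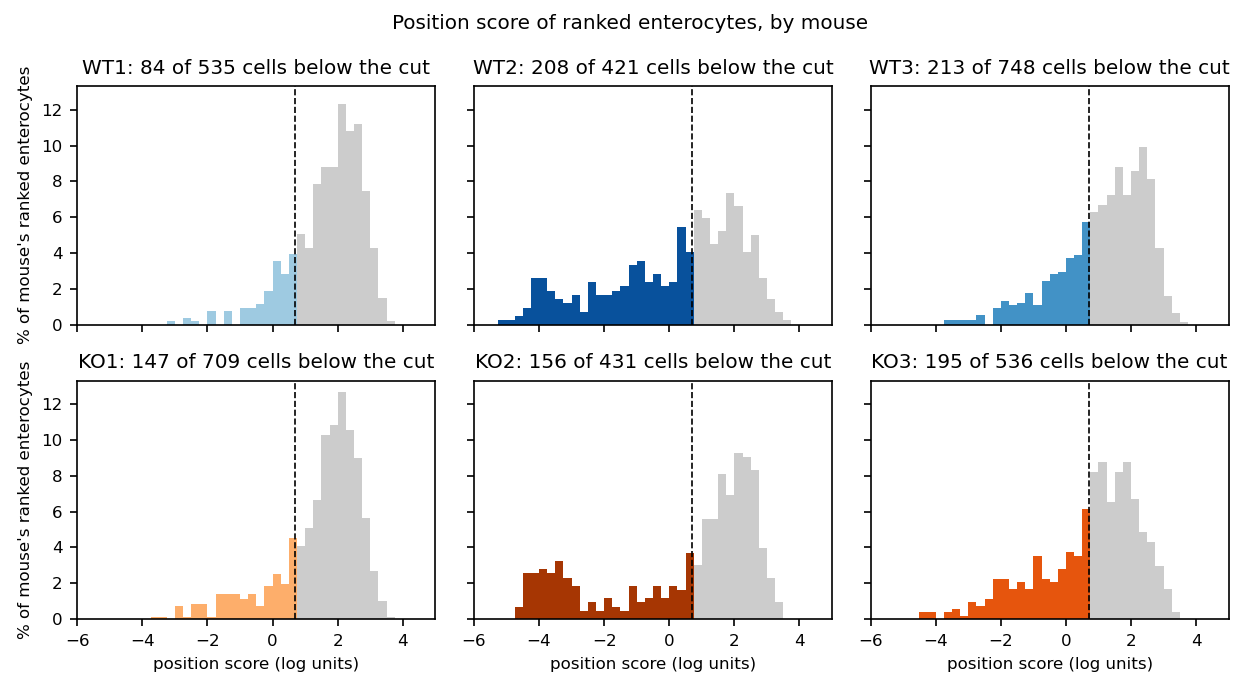
Distribution of the position score (x axis, log units) as a percentage of each mouse's ranked enterocytes (y axis, bins of 0.25), with members in colour, the other ranked cells in grey and the dashed line at the highest member's score of 0.6956; the bin that holds the line is drawn in colour. WT2 and KO2 have a tail of low scores that is thin in WT1.

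The genes that chose the cells are described without a test. Reg3b, an antimicrobial lectin, stood at 29191, 62321 and 40063 CPM in WT and 25563, 30069 and 45605 in KO members, against 702 to 1983 CPM in the top tertile of the same mice. Plac8 stood at 2761, 5544 and 2207 in WT and 3376, 5524 and 3539.8 in KO members, against 93.5 to 174 in the top tertile. Both were therefore high in the members of all 6 mice. Lypd8, which binds flagellated bacteria, was not: it stood at 99.1, 3638 and 294 in WT and 280.3, 3285 and 472 in KO members, against 48.3 to 61.0 in the top tertile. WT2 and KO2 thus held most of the Lypd8 and, with 1177 and 3964 CPM against 260.3 to 559 in the other mice, of the Reg1. Of the purine genes on the other side of the score, Ada (adenosine deaminase) reached 699 to 5483 CPM in members and 12838 to 16910.4 CPM in the top tertile. Egfr, also on that side, stood at 105, 63.1 and 103 in WT and 55.5, 24.7 and 38.9 in KO members, without overlap. It did not overlap in the top tertile either, at 1301, 1568 and 1396 against 683, 996 and 803. Klf4 overlapped in members but not in the top tertile, at 966, 934 and 927 against 793, 716 and 850. Both libraries were ranked together, and the part of these levels in membership was not tested.

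The boundary of the members falls in a continuous range of scores. The last cell inside scored 0.6956 and the first outside 0.6979. The 100 cells on each side had 6404 and 6829 CPM of Reg3b, 6225 and 6105 CPM of Ada and 51.6 and 53 CPM of Il18. When the 1866 members were split by score into 3 parts of 622 cells, Reg3b stood at 57548, 26146 and 9701 CPM from the lowest to the highest scores and Fabp1 (a liver-type fatty acid binding protein) at 25005, 6301 and 2369. The median UMIs per cell of the parts were 33350, 8176 and 8403, so the lowest-scoring members were also the deepest.

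Genes outside the score were compared between the members and the other tertiles of the same mice as a description, since the rule used that contrast. Of 9095 genes, 42.7% were higher and 21.7% lower in the bottom than in the top tertile in 6 of 6 mice, with a median log2 ratio of 0.38. Against the middle tertile 30.9% of 9011 genes were higher and 25.4% lower in 6 of 6 mice, with a median of 0.07. Ratios are of CPM plus 1 and are means over the 6 mice. The label of villus bottom was checked on 7 other genes known from the lower villus, of which 6 were higher than in the top tertile in 6 of 6 mice, with a median log2 ratio of 3.43 over the 7. Nlrp6, an inflammasome sensor of the gut epithelium, stood at 12.9, 72.9 and 12.4 CPM in WT and 36.8, 157 and 32.5 in KO members, against 0 to 2.26 in the top tertile. The cytokine Il18 stood at 118, 406 and 116 in WT and 235, 696 and 354 in KO members, against 17.7 to 30.7 in the top tertile. Ccl25, a chemokine that draws lymphocytes to the small intestine, stood at 158, 506 and 123 against 292, 831 and 259, and at 7.98 to 26.6 in the top tertile. All 3 were high in every mouse and highest in WT2 and KO2. The exception was Dmbt1, a mucosal scavenger receptor, which reached 318 and 571 CPM in WT2 and KO2 but 10.3 to 21.2 CPM in the other 4 mice. Its top-tertile levels were 6.65 to 19.6 CPM, so outside the mice with hashtag 2 this gene did not mark the members.

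Genes of sugar digestion and uptake were higher in members than in the top tertile in 6 of 6 mice for 9 of 9, with a median log2 ratio of 2.71. The basolateral glucose transporter Slc2a2 had the highest ratio of all genes that met the 100 CPM minimum (log2 6.39). It stood at 133, 157 and 139.5 CPM in WT and 329, 227 and 230.1 in KO members, at 9.82 to 22.9 in the middle tertile and at 0 to 2.97 in the top tertile. Sucrase-isomaltase, Sis, stood at 269, 1184 and 267 in WT and 588, 1615 and 682 in KO members, against 7.76 to 20.4 in the top tertile. Slc2a2 was even across the WT mice, while Sis was highest in WT2 and KO2. Other genes with high ratios were the lactate transporter Slc5a12 (log2 5.55), the antimicrobial peptide and ghrelin receptor antagonist gene Leap2 (5.26), the glutathione transferase Gstp1 (5.09), the kinase Prkg2 (4.97), the lectin Mbl2 (4.95), Cbr1 (4.87), Chchd10 (4.86) and Maoa (4.8). Sugar uptake is known from higher on the villus than the Reg3 lectins, so the members are named here by their score and not by an exact position.

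Genes of protein synthesis and energy supply were higher as well. Of 76 ribosomal protein genes, 75 were higher than in the top tertile in 6 of 6 mice (median log2 ratio 2.3). Of 78 nuclear genes of the respiratory chain, 77 were (2.83), and of 16 redox and glutathione genes, 15 were (2.59). Prdx1, a peroxiredoxin, stood at 817, 1795 and 510.1 CPM in WT and 1239, 2538 and 1243 in KO members, against 44.3 to 84.1 in the top tertile. Gclc, which makes the glutathione precursor, was the redox gene that was not higher (log2 ratio −0.87). Of the 13 genes encoded in mitochondria, 7 were lower in 6 of 6 mice (median −0.36). The members also had more UMIs per cell than the top tertile in every mouse, with medians of 10216.5 to 41434.5 against 7366 to 9217, and the part of depth in these ratios was not tested.

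Other genes were lower in the members than in the top tertile. Cemip, a hyaluronan-binding protein, had the lowest ratio (log2 −4.45), with 15.9, 10.2 and 34.1 CPM in WT and 28.7, 8.64 and 26.6 in KO members against 339 to 532 in the top tertile. Behind it came, among others, the sialyltransferase St3gal1 (−4.44), the tight junction gene Cldn4 (−4.25), the ubiquitin ligase March3 (−3.74), Marcksl1 (−3.63), Gas2l3 (−3.56), the lipid phosphatase Lpin2 (−3.47), Clic4 (−3.44) and the laminin chain Lama3 (−3.38). Of 12 other genes known from the villus top, 9 were lower in 6 of 6 mice (median −1.06), among them Clca4a (−2.65), the ectoenzyme Enpp3 (−1.73) and the cadherin Cdh1 (−1.49). Against the name of this list, 1 of the 12 was higher in the members in 6 of 6 mice. Lipid absorption genes were mixed, with 7 of 13 higher and 4 lower, and so were pyroptosis genes, with 8 of 21 higher and 9 lower. All genes were mixed too, with 42.7% higher and 21.7% lower in 6 of 6 mice. Within the pyroptosis list the sensor Nlrp6 and the caspase Casp1 (log2 2.27) were on the higher side, and the pore former Gsdmd (−0.76) and Casp8 (−0.71) on the lower.

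**Figure D2:**
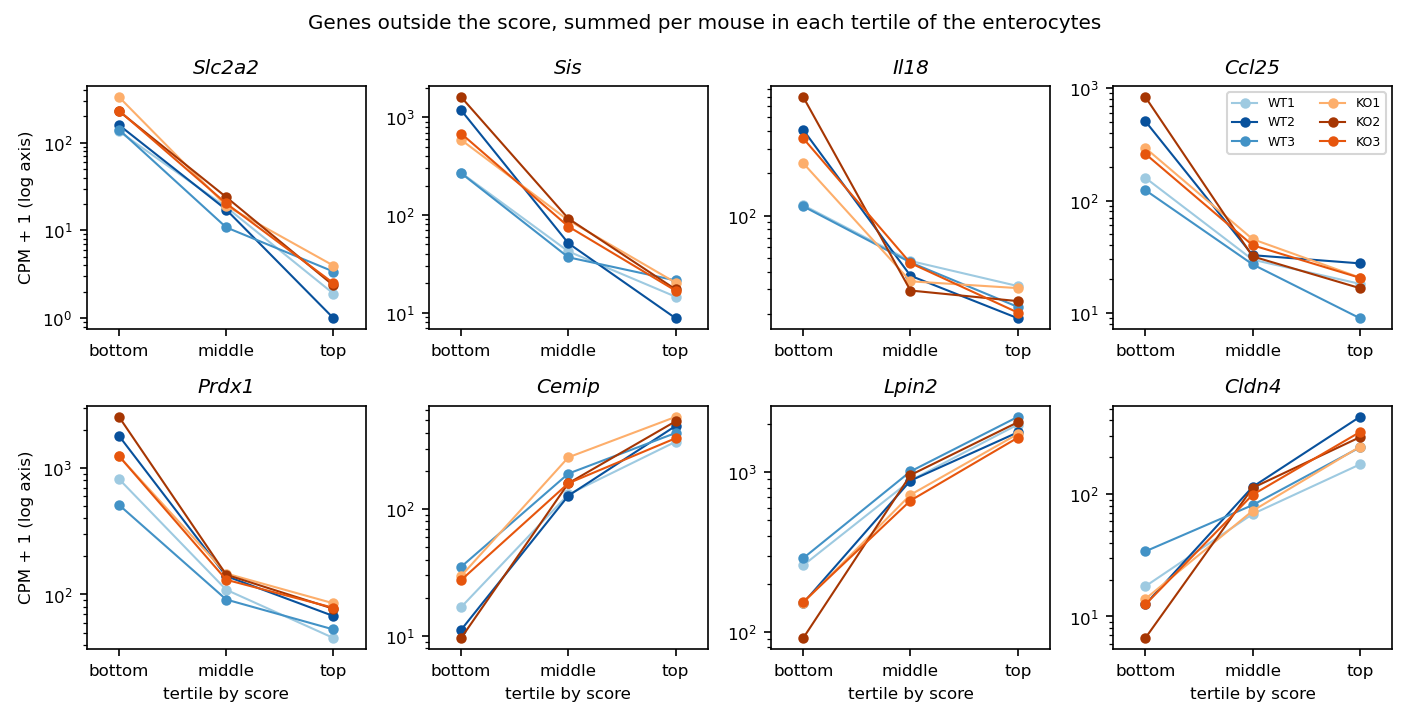
CPM plus 1 (y axes, log scale) of 8 genes outside the score in the bottom, middle and top tertile of the ranked enterocytes (x axes), with 1 line per mouse. Slc2a2, Sis, Il18, Ccl25 and Prdx1 are highest and Cemip, Lpin2 and Cldn4 lowest in the bottom tertile of every mouse.

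Markers of other cells were low but uneven in the members. Of the cells that the CD45 gate should remove, 6 neutrophil genes summed to 0 to 1.41 CPM and 15 lymphocyte and macrophage genes to 0.28 to 6.2 CPM. Stem cell genes summed to 54.2 to 101 CPM, and Lgr5, the defining stem cell gene, stood at 0 to 4.12 CPM. Enteroendocrine genes summed to 35.7 to 93.3 CPM in 5 mice and to 2828 CPM in WT3, where 1 cell had 1% or more of its UMIs from them. Paneth cell genes summed to 222, 2203 and 258 CPM in WT and 531, 405 and 547 in KO members, and in WT2 2 cells passed the same limit. Goblet genes, which the gate limits, summed to 1163 to 2074 CPM, and 2, 21 and 3 cells of WT1, WT2 and WT3 passed that limit for them, against 0 in each KO mouse. Tuft cell genes summed to 2.13 to 113 CPM, with 1 such cell in WT2, 1 in WT3 and 2 in KO1. Without the cells past the limit for any of these 4 lists, which left 1688 members, the interferon-stimulated and lower-villus counts with the block given below were 42 of 43 lower and 4 of 7 higher.

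The members were then compared between KO and WT mice, which asks how loss of the interferon-λ receptor in the epithelium altered these cells after irradiation. The main test was edgeR's quasi-likelihood test on the 6 sums, with Benjamini-Hochberg adjustment over 9306 genes and a threshold of 0.05. It called 1 gene, Rsad2 (0.0107% of the genes tested), with 410 at an unadjusted p under the threshold, while DESeq2 called 39. A second fit carried the hashtag number as a block, which pairs WT1 with KO1 and so on and takes out the distance of WT2 and KO2 from the rest. The block fit called 646 genes (6.94%), 345 lower (3.71%) and 301 higher (3.23%) in KO. Without WT2 and KO2 and without the block, 312 genes were called, 194 lower (2.19%) and 118 higher (1.33%), and 246 of them were among the 646. The labels state no pairing, and mice 1 and 3 correlated as closely with their numbers swapped, as given with the processing below. A p-value with the block measures the spread of the differences within hashtag numbers. What follows therefore gives both fits, and "with the block" marks a call that the fit without it lacks.

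Ifnlr1 itself stood at 25, 13.3 and 25.5 CPM in WT and 32.0, 21.7 and 29.2 in KO members (log2 fold change 0.27, SE 0.304, edgeR adjusted p = 0.874). Reads of this assay lie near the 3′ end and may miss the deleted exons, and for that reason the level is no test of the deletion.

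Interferon-stimulated genes, summed, stood lower in the members of every KO mouse than in those of every WT mouse. Their list of 50 genes summed to 5269, 4562 and 6231 CPM in WT and 2719, 1394 and 2629 in KO members, with means of 5354 ± 838 and 2248 ± 740 (SD, n = 3 per genotype; the exact permutation p was 0.1, which is the minimum for 3 mice against 3). The groups did not overlap, and the ratio was 0.42. Of the 43 genes tested, Rsad2 fell without the block and 41 fell with the block (38 with the block and without WT2 and KO2, of 42 tested), none rose in either fit, and DESeq2 called 19 lower. The median log2 fold change was −1.53 against 0.02 over all genes. In 35 of the 43, every KO mouse lay below every WT mouse, as in 3.08% of all genes tested, and 8.5% of all genes had every KO mouse above. Earlier results of these data already showed this list lower in KO mice over all cells, so its direction here is not independent support. Ifit2 and Ifi27 did not pass even with the block (adjusted p = 0.0581 and 0.0888).

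Rsad2 (chromosome 12, 26442746 to 26456452, mm10), which encodes the antiviral enzyme viperin, stood at 56.8, 34.1 and 58.2 CPM in WT and 2.26, 1.13 and 1.88 in KO members. It fell by 4.98 on the log2 scale (SE 0.365, edgeR adjusted p = 0.0347). The call was lost, with the fold change kept, when WT1, WT3, KO1 or KO3 was left out (adjusted p = 0.285 to 0.321) and under 3 other settings given in the closing section. Other antiviral effectors passed with the block only. Ifit1, which binds viral RNA and carries 2 matches in the promoter above, stood at 142, 164 and 187 in WT and 27.4, 8.79 and 22.1 in KO members (log2 −3.35 with the block, SE 0.295, adjusted p = 0.00211). Its relative Ifit1bl1 stood at 147, 215 and 196 against 29.1, 19.3 and 33.9 (log2 −2.93, adjusted p = 0.000827). The large ubiquitin ligase Rnf213 was the steadiest within genotypes, at 185, 144 and 210.5 against 38.4, 30.0 and 34.6 (log2 −2.5, adjusted p = 0.000467, and 0.0556 without the block). Rtp4 fell from 69.6, 55.3 and 76.8 to 9.04, 2.55 and 9.18 CPM (log2 −3.56, adjusted p = 0.000827). In each of these 5 genes the lowest WT mouse lay more than 3 times above the highest KO mouse.

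Isg15 (chromosome 4, 156199424 to 156200818), a ubiquitin-like protein that is attached to other proteins, stood at 330.0, 328 and 524 CPM in WT and 75.9, 36.3 and 78.7 in KO members (log2 −2.81 with the block, SE 0.204, adjusted p = 0.000827, and 0.171 without it). Usp18, which removes it again and dampens interferon receptors, stood at 52.2, 33.1 and 76.8 against 4.84, 1.28 and 7.06 (log2 −3.88 with the block, adjusted p = 0.000613). Herc6, a ligase of the same system, stood at 43.1, 59.2 and 87.1 against 7.75, 3.40 and 9.89 (log2 −3.42, adjusted p = 0.000881). Attachment, removal and modifier were thus lower together. The oligoadenylate synthetases, which sense double-stranded RNA and activate RNase L, followed: Oas1a stood at 32.5, 35.7 and 41.7 against 6.78, 1.84 and 7.54 (log2 −3.09, adjusted p = 0.00497). Its close paralog Oas1g stood at 28.0, 21.2 and 33.4 against 4.52, 2.69 and 3.77 (log2 −3.05), and reads may be shared between near-identical copies. Oas2 stood at 5.30, 5.29 and 24.5 against 0.323, 0 and 0.235, where 0 UMIs in KO2 allow up to 0.425 CPM (log2 −6.09, adjusted p = 0.00368). Ifi44 stood at 3.03, 9.60 and 6.2 against 0, 0.283 and 0, where the floors are 0.969 CPM in KO1 and 0.706 in KO3 (log2 −5.54, adjusted p = 0.00583).

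The signalling genes of the pathway had smaller fold changes. Irf9 stood at 32.5, 23.9 and 40.0 against 17.1, 13.9 and 19.5 (log2 −1.03 with the block, adjusted p = 0.0139), and Stat2 at 65.8, 36.8 and 81.6 against 38.4, 14.9 and 35.6 (−1.23, adjusted p = 0.00627). Irf9 did not overlap between genotypes, and Stat2 did. Irf7, a factor that amplifies interferon responses, stood at 251, 156 and 371 against 146, 42.7 and 120.3 (−1.56, adjusted p = 0.00844). The RNA sensor Ifih1 stood at 190.0, 129 and 211 against 124, 49.6 and 114 (−1.09, adjusted p = 0.0113). Of the 9 receptor subunits and kinases themselves, none passed in either fit (median log2 −0.17).

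**Figure D3:**
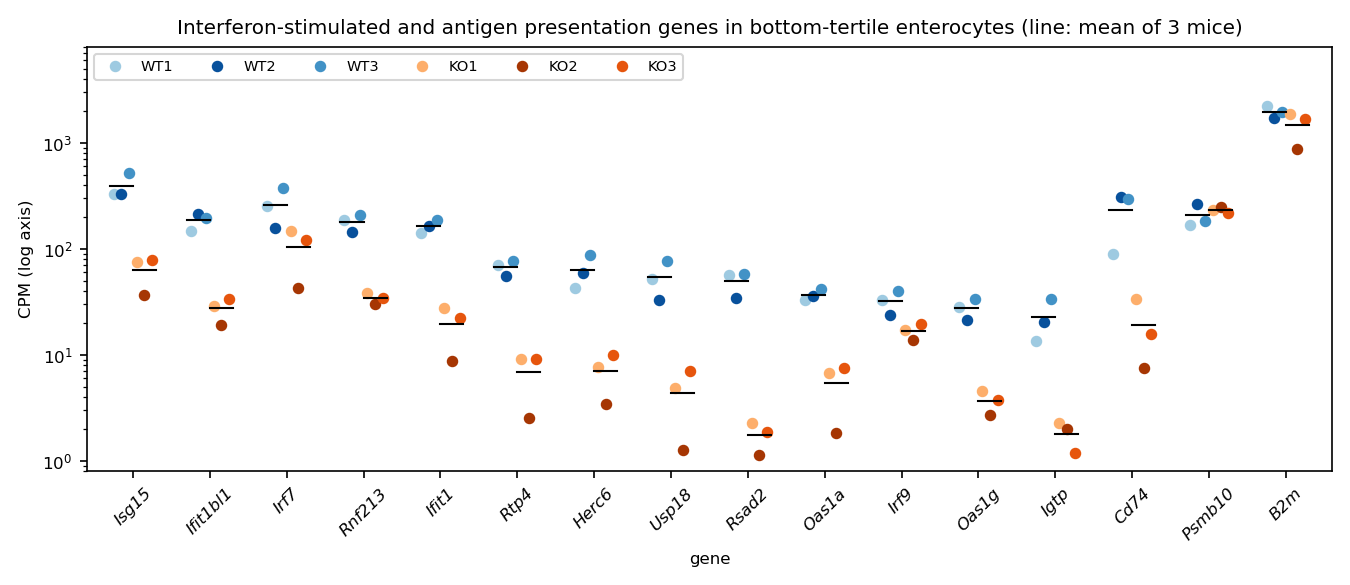
CPM in bottom-tertile enterocytes (y axis, log scale) of 16 interferon-stimulated and antigen presentation genes (x axis), with 1 point per mouse and a line at the mean of each genotype. From Isg15 to Cd74 all KO mice lie below all WT mice, while Psmb10 and B2m overlap.

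Antigen presentation genes, a list of MHC genes, peptide-loading genes and interferon-γ-inducible GTPases, were split. With the block 9 of the 23 tested fell, against 3.71% of all genes, and none rose (median log2 −0.67). Without the block none passed. Cd74, the chaperone of MHC class II, stood at 89.3, 305 and 297 CPM in WT and 33.6, 7.51 and 15.8 in KO members (log2 −3.84 with the block, SE 0.633, adjusted p = 0.017). The class II chain H2-Ab1 stood at 53.7, 138 and 166 against 41.3, 11.8 and 33.4 (−2.30, adjusted p = 0.0316). WT1 was the lowest WT mouse for both, and neither overlapped between genotypes. H2-Aa (−3.22, adjusted p = 0.0384), H2-Eb1 (−2.01, adjusted p = 0.0437), H2-T23 (−0.84, adjusted p = 0.0454) and the peptide pump Tap1 (−1.09, adjusted p = 0.0187) also fell with the block; without WT2 and KO2 and without the block, H2-Aa and H2-Eb1 had adjusted p = 0.0679 and 0.0807. The GTPases Igtp, at 13.6, 20.2 and 33.8 against 2.26, 1.98 and 1.18 (−3.72, adjusted p = 0.00368), Irgm2 (−3.50) and Gbp7 (−4.88) fell with the block too, and Igtp and Irgm2 overlap on the chromosome, so their reads may be shared. The light chain B2m stood at 2233, 1725 and 1934 against 1858, 868 and 1659 and did not pass (adjusted p = 0.0822 with the block). The list as a whole summed to 7228 ± 748 and 5466 ± 1631 CPM (exact permutation p = 0.2, n = 3 per genotype).

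Whether the interferon difference sat in 1 kind of member was read from the 3 parts by score. The interferon-stimulated list stood at 5115, 4073 and 7392 CPM in WT and 2672, 1168 and 2654 in KO cells of the lowest scores. It stood at 5703, 6276 and 5752 against 2885, 2697 and 2774 in the middle, and at 5008, 5093 and 5827 against 2555, 2786 and 2377 in the highest scores. The genotypes did not overlap in any of the parts. KO2 was the lowest KO mouse among the lowest scores, while in the other parts the KO mice lay close together. Ribosomal protein genes went the other way among the lowest scores, at 10818, 54373 and 11683 against 19033, 103152 and 26644 CPM. KO2 thus had the lowest interferon and the highest ribosomal share there, and a link between them was not tested. In the middle scores ribosomal genes stood at 11616 to 16261 CPM in WT and 11169.7 to 12189 in KO cells, and KO2 lay between KO3 and KO1. WT1 gave 8 cells to the lowest scores, and its values there rest on these.

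**Figure D4:**
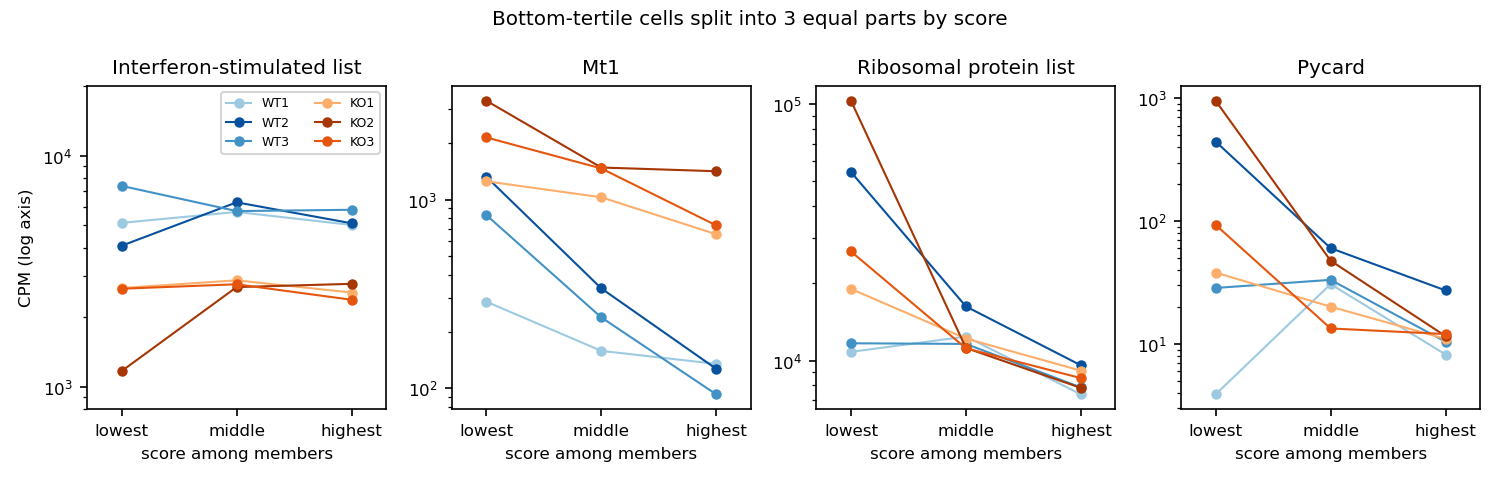
CPM (y axes, log scale) in bottom-tertile cells split by score into parts of 622 cells (x axes, lowest, middle and highest scores), with 1 line per mouse, for the interferon-stimulated list, Mt1, the ribosomal protein list and Pycard. The interferon list separates the genotypes in each part, and WT2 and KO2 stand apart in ribosomal genes and Pycard among the lowest scores.

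The interferon difference was compared with that in the other tertiles of the same mice. The list summed to 5557 ± 665 and 2891 ± 197 CPM in the middle tertile (ratio 0.52) and to 4758 ± 458 and 2899 ± 148 CPM in the top tertile (0.609), against 0.42 in the bottom tertile. No gene passed the test of the difference between the genotype effects, neither for bottom against top (0 of 9095 in edgeR, 0%, 413 at an unadjusted p under the threshold, 3 in DESeq2) nor for bottom against middle (0 of 9011, 0%, 305 unadjusted, 0 in DESeq2). In simulated data this test recovered 4 of 200 differences of log2 1 and 158 of 200 of log2 2 for bottom against top. The smallest p belonged to Antxr2 (log2 2.11, SE 0.305, adjusted p = 0.346), Ifit1bl1 (−2.63, SE 0.407, adjusted p = 0.346) and the scramblase gene Ano6 (1.67, SE 0.262, adjusted p = 0.346). Ifit1bl1 stood at 64.6, 49.9 and 77.0 CPM in WT and 53.4, 74.1 and 48.1 in KO cells of the top tertile, where the genotypes overlapped, unlike in the members. Isg15 differed by −1.16 (SE 0.393, adjusted p = 0.979) and Rsad2 by −1.65 (SE 0.448, adjusted p = 0.979). Without WT2 and KO2, 125 genes were called for bottom against top and 11 for bottom against middle, so the count of 0 depends on these 2 mice. Against the middle tertile the smallest p belonged to Adcy2, to Pigr, which carries antibodies across the epithelium, and to Ubd, Kcnb2 and Gm42937. Pigr overlapped between genotypes in the members at 471, 992 and 382 against 319, 791 and 465 CPM, and not in the middle tertile, at 104, 278 and 132 against 38.3, 68.0 and 42.3 (difference 1.51, SE 0.291, adjusted p = 0.962).

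**Figure D5:**
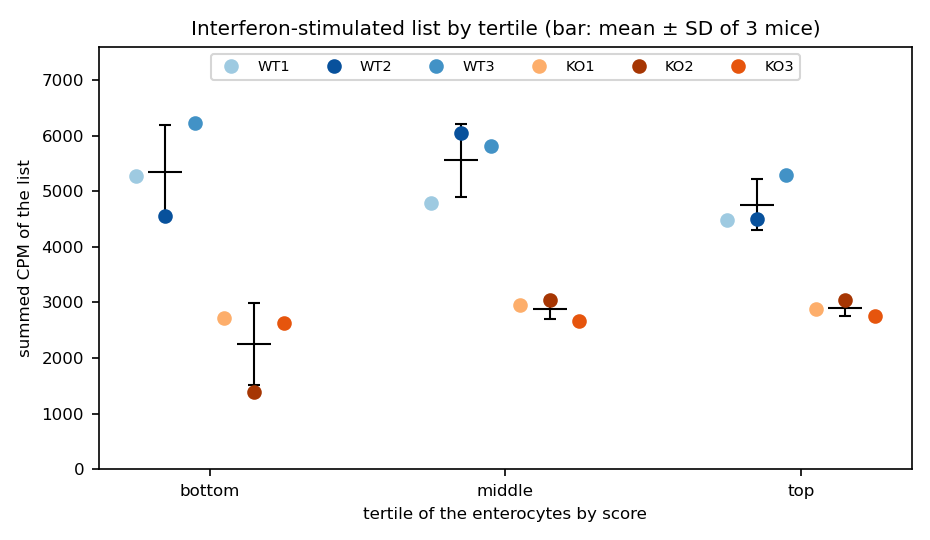
Summed CPM of the interferon-stimulated list (y axis) in the bottom, middle and top tertile of the ranked enterocytes (x axis), with 1 point per mouse and bars for the mean ± SD of 3 mice per genotype. All KO mice lie below all WT mice in each tertile, and KO2 in the bottom tertile is the lowest value.

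Genes of the lower villus outside the score were mostly higher in KO members in the fit with the block. With the block 4 of 7 rose and none fell (median log2 0.70), against 3.23% higher and 3.71% lower over all genes. The same 4 were called higher without WT2 and KO2, and without the block none passed. Nlrp6 (log2 1.15, SE 0.143, adjusted p = 0.00701), Il18 (1.0, SE 0.179, adjusted p = 0.021), Ccl25 (0.77, SE 0.14, adjusted p = 0.0219) and the lectin Reg3a (0.74, SE 0.162, adjusted p = 0.0376) were the 4, each with adjusted p = 0.874 without the block. Their levels overlapped between genotypes, with WT2 above KO1 and KO3. Within every hashtag number the KO members had the smaller median score: −0.34 against 0.055, −2.81 against −1.17 and −0.74 against −0.23. From the lowest to the highest scores, Nlrp6 stood at 119, 24.4 and 7.16 CPM over all members and Il18 at 626, 167 and 85.2. Ccl25 stood at 721, 191 and 71.1 and Reg3a at 241, 62.6 and 54.2. The part of the score in the rises with the block was not tested. Without KO2 alone, the unblocked fold change turned to log2 −0.10 for Nlrp6 and −0.04 for Ccl25, and when 1 mouse was left out it ranged from 0.36 to 1.77 for Il18 and from 0.28 to 1.29 for Reg3a, lowest without KO2 and highest without WT2. With each cell thinned to 1000 UMIs the block fit called 1 of 6 tested, Il18 (median log2 0.47). Split by score, Il18 stood at 143, 119 and 112 CPM in WT and 216, 192 and 252 in KO cells of the middle scores, and at 88.7, 46.8 and 49.1 against 101, 116 and 142 in the highest. There the genotypes did not overlap, while among the lowest scores WT2 with 526 CPM lay above KO1 with 381. Nlrp6 did not overlap in the middle scores, at 11.0, 19.0 and 6.13 against 41.1, 34.0 and 24.0. The share of all genes without overlap was not computed for the parts by score. Over the members as a whole, 8.5% of all genes had every KO mouse above every WT mouse. Nlrp6 and Il18 also belong to the pyroptosis list, in which cell death by membrane pores is set off by inflammasomes. There 4 of 21 rose with the block (Nlrp6, Il18, Pycard and Casp1) and 2 fell. The 2 were the caspase Casp4, at 47.7, 69.0 and 64.8 against 34.2, 17.0 and 29.9 CPM (log2 −1.39, adjusted p = 0.021), and the nucleic acid sensor Zbp1, at 151, 148 and 192 against 103, 48.6 and 95.6 (−1.18, adjusted p = 0.0151). Zbp1 is also a member of the interferon-stimulated list. Pycard, the inflammasome adaptor, had 15.1, 336 and 24.5 against 23.3, 824 and 47.6 CPM, and without KO2 alone its fold change turned to log2 −1.94. Without WT2 and KO2, Pycard and Casp1 were not called (adjusted p = 0.34 and 0.0544). Gsdmd stood at 428, 318 and 551 against 509, 197 and 564 and did not pass.

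Mt1 (chromosome 8, 94179082 to 94180327), a metallothionein that binds zinc and copper, was among the 10 largest rises with the block. It stood at 173, 1028 and 353 CPM in WT and 989, 3064 and 1579 in KO members, where only WT2 reached above a KO mouse (log2 1.95 with the block, SE 0.197, adjusted p = 0.00368, and 0.874 without it). Without WT2 and KO2 it rose by 2.13 (adjusted p = 0.010), and without KO2 alone the unblocked change was 1.20. In the middle scores Mt1 stood at 158, 338 and 238 against 1028, 1477 and 1461, and in the highest at 135, 127 and 92.9 against 655, 1412 and 729, with no overlap in either. As for Il18, the share of all genes without overlap there was not computed. It was the 1 gene of 6 in the metallothionein and zinc list that passed with the block. Mt2 stood at 5.30, 84.5 and 23.1 against 6.78, 33.0 and 25.4. The list stood higher in every KO than in every WT mouse in the middle and top tertiles, with sums of 159 ± 34.3 and 739 ± 77.1 CPM in the top tertile (SD, n = 3, exact permutation p = 0.1).

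Some genes of absorption rose with the block, in which 3.23% of all genes tested rose and 3.71% fell. Of the sugar list, 3 of 9 rose and none fell: Slc2a2 (log2 0.72, adjusted p = 0.0437), Sis (0.85, adjusted p = 0.0385) and the fructose transporter Slc2a5 (0.56, adjusted p = 0.0398), which stood at 29.5, 39.6 and 35.8 against 48.4, 59.4 and 61.0 CPM. Slc2a2 and Slc2a5 had every KO mouse above every WT mouse, as did 8.5% of all genes tested. Leaving out 1 mouse moved the unblocked change of Sis between log2 0.041 (without KO2) and 1.73 (without WT2), and with thinned cells the block fit called 1 of 8 sugar genes, Sis. The proline transporter Slc6a20a (1.27, adjusted p = 0.0113) and the lipid droplet protein Plin2 (0.86, adjusted p = 0.0156) rose as 1 of 11 amino acid and peptide transporters and 1 of 13 lipid genes, and none of 10 peptidases passed. Without KO2 the unblocked change was 0.68 for Slc6a20a and 0.13 for Plin2, and without WT2 it was 2.04 and 1.49. Without WT2 and KO2 and without the block, 2 of 9 sugar genes and 1 of 11 transporters rose, and none of 13 lipid genes was called. In that fit 1.33% of all genes rose. Of the villus top list, Clca4a fell, at 2275, 886 and 3084 against 1303, 387 and 1376 (−1.18, adjusted p = 0.00856). It was 1 of the 2 that fell among the 12 genes of that list. Of 16 redox genes 4 rose, among them Gstm1 (1.53, adjusted p = 0.00627), whose change turned to log2 −0.28 without KO2. Ribosomal protein genes rose in 35 of 76 with the block, and in 9 of 76 without WT2 and KO2 and without the block, and 7 of 78 respiratory chain genes rose. The sums of both lists overlapped between genotypes in every part by score. Among the highest scores the ribosomal sums were 7383 to 9583 CPM in WT and 7824 to 9134 in KO cells. Each KO mouse had a lower median member score than the WT mouse of its number, and the part of the score in these counts was not tested. Median UMIs per cell were also higher in all KO than in all WT mice, and the part of depth in these counts was not tested. With each cell thinned to 1000 UMIs the block fit called 37 of all 2699 genes tested higher and 34 lower. It called 6 of 74 ribosomal genes higher, 14 of 22 interferon-stimulated and 2 of 11 antigen presentation genes lower, and 1 of 16 pyroptosis genes in each direction. The thinned sums held 84000 to 213000 UMIs per mouse, so fewer calls there do not measure the part of depth.

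Of a list of genes linked to interleukin-22, a cytokine that protects the epithelium, 3 of 8 tested fell with the block and none rose. Over all genes 3.71% fell and 3.23% rose with the block. Saa2, Saa3, Lcn2 and Pdzk1ip1 of this list had too few counts to be tested. Reg3b and Reg3g, as score genes, were not tested, and Reg3a was counted with the lower villus genes, where it rose. Without WT2 and KO2, 1 of 8 fell without the block and 3 of 8 with it. Fut2, which fucosylates the surface of enterocytes, stood at 58.3, 12.9 and 75.4 CPM in WT and 10.7, 5.24 and 18.8 in KO members (log2 −2.06, SE 0.226, adjusted p = 0.00497), with WT2 below KO3. The receptor chain Il22ra1 fell as well (−0.81, adjusted p = 0.0367). Of the Wnt and stem cell lists, Axin2 fell, a feedback inhibitor of Wnt signalling, at 66.6, 40.6 and 72.7 against 38.8, 11.2 and 23.1 (−1.57, adjusted p = 0.00833), without overlap. No proliferation gene of 8 passed. Of 11 p53 targets, the death genes Pmaip1 (−1.12, adjusted p = 0.00583) and Bax (0.56, adjusted p = 0.0487) went opposite ways with the block. Without WT2 and KO2, none of the 11 was called without the block, and with it 2 fell and none rose. None of the regenerative (6 tested), unfolded protein (11), proximal (6) or distal (5) intestine genes passed in either fit.

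Of the remaining genes with the largest changes with the block, several are known from other cells. Igkc, an immunoglobulin light chain of B cells, had 51 UMIs over the WT members and 0 of 14399811 over the KO members, at least 26.2-fold lower against a floor of 3 UMIs over the group. Lymphocyte genes summed to at most 6.2 CPM in any mouse, as given above. Nts, a gut hormone, stood at 6.05, 4.70 and 204 against 1.61, 2.69 and 2.35 CPM, and WT3 is the mouse with the cell rich in enteroendocrine genes. Gip, another gut hormone, stood at 5.30, 1.37 and 3.79 against 30.4, 9.92 and 22.1 (log2 2.5, adjusted p = 0.00368), and the Paneth defensins Defa22 (1.96, adjusted p = 0.0138) and Defa21 (1.55, adjusted p = 0.0286), near-identical copies whose reads may be shared, stood at 1.96 to 3.79 CPM in WT and 7.23 to 15.5 in KO members. Enteroendocrine and Paneth sums of the same mice are given above, and their part in these values was not tested. The clock output factor Dbp stood at 1.51, 0.392 and 0.344 against 8.72, 5.38 and 15.5 CPM (log2 3.80, SE 0.525, adjusted p = 0.0101). Its WT values lay below the level of 3 UMIs in each WT mouse (2.27, 0.588 and 1.03 CPM), so the size of this rise rests on few counts. Gm16685 stood at 11.4, 12.5 and 27.6 against 0.969, 0.142 and 1.41 CPM (−4.65, adjusted p = 0.00261). Ugt2b5 (2.59), Tmsb15b2 (2.11), Acot2 (1.98), Auts2 (1.94), Rpf2 (1.90) and the glycogen phosphorylase Pygb (1.90) completed the 10 highest, all at 0 to 68.7 CPM.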

How the data were processed

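Single-cell libraries of messenger RNA and of hashtags were deposited for 1 WT and 1 KO pool. The deposited values are raw UMI counts per gene and barcode, made by the authors with Cell Ranger 7.0.1 against mm10; Seurat 4.1.0 is named without its role, per the submitters' processing notes. Whether intronic reads were counted is not given in the sources used here. The WT library held 102915321 UMIs in 10453 barcodes and the KO library 110960113 in 7370. Barcodes with at least 1000 UMIs, 500 genes and at most 25% mitochondrial UMIs were kept (5563 and 4028). Mice were assigned with HTODemux (Seurat 5.3.0, quantile 0.99). Hashtag doublets entered no comparison between mice, no doublet caller was run, and doublets of 1 mouse stay in.

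UMI counts were summed per mouse over the members and tested with edgeR 4.0.16 (TMM, filterByExpr, quasi-likelihood F test, Benjamini-Hochberg adjustment, threshold 0.05) in R 4.3.3. The 23 genes of the gate and score were left out of the tests. The difference of genotype effects between tertiles was tested in 1 model with the mouse as a covariate. Alternatives were DESeq2 1.42.0, other size factors, filters, hashtag rules and mitochondrial limits, other ways to score, leaving out mice, and the hashtag number as a block. The mice of equal number deviated together over 9306 genes: WT1 with KO1 correlated at 0.244, WT2 with KO2 at 0.707 and WT3 with KO3 at 0.461, which met the limit set for treating them as pairs. Unequal numbers did so too (WT3 with KO1 at 0.514, WT1 with KO3 at 0.289), and the pairs of hashtag 2 with another number stood at −0.318 to −0.590. On data simulated for KO against WT, the main test recovered 83 of 200 genes changed by log2 1 (9286 genes tested) and 200 of 200 changed by log2 2 (9314 tested). The simulations gave every gene the same dispersion of 0.05 and set WT2 and KO2 no further apart than other mice. Changed genes were drawn from those with more than 200 UMIs in all. These recoveries therefore do not give the power of the tests on the measured genes.

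Genes named are Ifnlr1, the 10 highest and lowest past the threshold (with the block where too few passed), the highest and lowest between tertiles, the smallest p between tertiles and members of gene lists; further list members were chosen after their values were seen. Some genes that this rule names are not reported here. The members and lists were chosen with earlier results of these data known. Coordinates are from GENCODE M21 (mm10), in which 32235 of 32285 gene IDs were found, and promoters from RefSeq (GRCm38.p6). A second experiment named in the labels was not analysed here.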

Additional observations from a re-analysis of the deposited data

Results flagged for a closer look

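Members that carried no hashtag entered no comparison between mice. Those of the WT library (525 cells) held 5272 CPM of the interferon-stimulated list (18246 of 3460837 UMIs, exact Poisson 95% interval 5196 to 5349, counting error only), and those of the KO library (161 cells) 1716 CPM (1680 to 1752). They were picked out because a signal appeared in cells outside the comparisons. Hashtag doublets among the members gave 3999.9 CPM (128 cells of the WT library) and 1821 CPM (49 cells of the KO library). Rsad2 stood at 117 CPM in the WT and at 0.59 CPM (3 UMIs) in the KO members without a hashtag, and Mt1 at 656 and 3304 CPM. These cells had a median of 3712 UMIs in WT and 18195 in KO.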

How the results depend on the processing

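The count of genes that differed between KO and WT members moved with the setting. Against 1 gene it was 0 with the hashtag ratio rule, 0 with a mitochondrial limit of 15%, 0 with tertiles taken within each mouse, 19 without a filter on low counts, 39 with DESeq2, 312 without hashtag 2 in both genotypes and 646 with the replicate block, and leaving out 1 mouse gave 0 to 5. Of settings added after seeing the data, thinning the cells to equal UMIs gave 3 genes, and the block gave 71 with thinned cells, 651 with other size factors, 650 without hashtag 2, 782 without cells that had 1% or more of their UMIs from enteroendocrine or Paneth genes (goblet- and tuft-rich cells kept) and 947 without these and those rich in goblet or tuft genes. The 646 shared 246 genes with the 312 and 438 with the 650. For the difference of the genotype effects between bottom and top tertile, the count of 0 became 3 with DESeq2, 26 without a filter and 125 without hashtag 2, and for bottom against middle 45 without a filter and 11 without hashtag 2. The cause was not tested, and the test without hashtag 2 rests on 2 mice per genotype. The mitochondrial limit kept 909 and the tertiles within mice 905 of the 1866 members.

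The summed interferon-stimulated list differed by −3106 CPM, and by −3562 to −2668 CPM under all 15 alternatives run for it; within the pairs of equal hashtag it differed by −2549, −3168 and −3602 CPM. Of 62 named genes, 55 kept their direction in every alternative run. Rsad2 missed the threshold with the hashtag ratio rule (adjusted p = 0.0646), the mitochondrial limit (0.0922) and tertiles within each mouse (0.253), and its adjusted p ranged from 3.61e-20 to 0.321 over all alternatives. When 1 mouse was left out, the fold change of 7 genes crossed 0, on the log2 scale with a range of −0.0038 to 0.46 for Ifnlr1 (lowest without WT replicate 2) and, lowest without KO replicate 2 and highest without WT replicate 2, of −0.60 to 6.51 for Ugt2b5, −0.10 to 2.48 for Nlrp6, −0.040 to 1.61 for Ccl25, −1.94 to 3.80 for Pycard, −0.17 to 1.41 for Casp1 and −0.28 to 3.50 for Gstm1. The 1 call of the main fit, Rsad2, was kept with the block, while of the 312 calls without hashtag 2 and without the block 246 were. With 3 mice per genotype from 1 pool each, differences of log2 1 were often missed in simulated data, and genes of a few UMIs per mouse rest on few counts.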

Other observations

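Because Dbp rose with the block, the levels of 17 genes of the circadian clock were read, a list chosen after its value was seen. Of the 13 that could be tested, 1 rose, Dbp itself, and 3 fell with the block, against 3.23% higher and 3.71% lower over all genes. Without WT2 and KO2, 2 rose and 1 fell without the block, and 3 rose and 2 fell with it. DESeq2 called 1 higher and none lower. Per1 stood at 6.81, 2.94 and 9.99 CPM in WT and 1.29, 1.42 and 2.83 in KO members (log2 −1.79, edgeR adjusted p = 0.0419), Npas2 at 185, 141 and 184 against 146, 74.4 and 123 (−0.74, adjusted p = 0.0273), and Arntl at 59.0, 61.5 and 52.0 against 52.3, 42.7 and 34.1 (−0.57, adjusted p = 0.0462). Nr1d1 stood at 22.7, 13.9 and 14.8 against 36.8, 16.9 and 49.7 and did not pass (0.79, adjusted p = 0.11). The hour of collection is not given in the labels.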
